A study of Homo sapiens with 8 samples.

Results

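The cytochrome P450 genes on the array, 52 rows of the deposited table, are described here in Huh-1, a cell line established from a human liver cancer. Rows were taken by name, as CYP followed by digits, a letter and digits, without pseudogenes and without 3 enzymes of retinoid and cholesterol metabolism (CYP26A1, CYP26B1 and CYP51A1); the table has 34602 rows in all besides its control rows. A gene was called detected when its detection p-value was under 0.01 on 4 or more of the 8 arrays, which held for 18 of the 52. In the siLSD1 group the cells were reverse-transfected with an siRNA against LSD1, the histone demethylase encoded by KDM1A, and in the siControl group with a control siRNA. Both groups were placed in 1% O2 48 h later and kept there for 24 h, so that no comparison with normal oxygen was made here. Each group has 2 biological replicates with 2 arrays each, 8 Illumina bead arrays in all, and the sources used here do not give the siRNA sequences or say whether the replicates came from separate cultures, so p-values measure the spread between these 4 samples. P450 transcripts were measured in 1 cell line under 1 hypoxic condition, and transcript signal does not measure enzyme activity.

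P450 enzymes carry a heme group and use molecular oxygen to hydroxylate or epoxidise lipids, vitamins, steroids and drugs. Those of the endoplasmic reticulum take electrons from the reductase POR, with cytochrome b5 as a helper, and those of mitochondria take them through the ferredoxin FDX1. Liver is the main site of the drug-metabolising members, of bile acid synthesis and of fatty acid hydroxylation, and much of their transcription is set by nuclear receptors and by the aryl hydrocarbon receptor.

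The arrays had median signals of 167.9 to 179.9 and 12447 to 13290 detected rows, and none of the 92 ERCC control rows had a signal above 227.8. KDM1A had signals of 1576, 1568, 1343 and 1327 on the siLSD1 arrays, against 3920, 3642, 5035 and 3998 on the siControl arrays. Its log2 difference, siLSD1 minus siControl, was -1.48 ± 0.18 (standard error of the limma fit, as are all errors after ± that are not named SD; adjusted p = 0.223). Of 10 hepatocyte and hepatoma markers, 9 were detected on 4 or more arrays, with a summed signal of 188400 to 197900 in siLSD1 and 171600 to 191900 in siControl. All 3 endothelial markers were undetected on every array, with summed signals of 322.4 to 391.4 in siLSD1 and 326 to 397.4 in siControl. The 5 blood markers summed to 915.1 to 977 in siLSD1 and 1079 to 1285 in siControl, with PTPRC and CD3E undetected on every array. Of these, the haemoglobin gene HBB had signals of 193 to 196 in siLSD1 and 268 to 513 in siControl, a log2 difference of -1.11 ± 0.35, and the part of blood markers in the P450 values was not tested. The 4 fibroblast markers summed to 1412 to 1644 in siLSD1 and 1582 to 1744 in siControl, with COL3A1 and DCN undetected on every array.

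In siLSD1 cells CYP3A5, CYP2J2, CYP4F11 and CYP27A1 had lower signals than in either siControl replicate, with arrays that did not overlap. So did the dimmer CYP1B1 and CYP39A1, with log2 differences of -0.65 and -0.55. These were -0.58 and -0.45 without background correction, but only -0.088 and -0.040 under neqc, another background correction. CYP24A1 and CYP2C18 stood higher and CYP4A11 lower, by amounts that depended on which siControl replicate they were set against. Of the 18 detected genes, 6 had higher and 12 lower estimates (51.4% of all rows tested were higher and 48.6% lower), with a median log2 difference of -0.24, against a median of 0.0074 over the 12870 rows tested. The limma test called 0 of the 18 at an adjusted p of 0.05 (0% of all rows tested), with adjusted p between 0.223 and 0.939. At an unadjusted p under 0.05 there were 9 of the 18, 2 higher and 7 lower, where 11.8% of all rows tested passed (5.92% higher and 5.85% lower). The difference exceeded 2-fold for 4 of the 18, 2 in each direction, against 1.62% of all rows tested (0.831% higher and 0.785% lower). All 4 siLSD1 arrays lay on one side of all 4 siControl arrays for 10 of the 18, 3 higher and 7 lower, where this held for 25.2% of all rows tested (12.9% higher and 12.2% lower). CYP4A11 entered the test through its siControl arrays alone, so its difference is partly set by the filter. Permuting 2 samples against 2 cannot give an exact p under 0.333 (two-sided), so such a test was not run gene by gene. Which calls were made depended on how the arrays and the siControl samples entered the fit. With all 8 arrays in the fit and the biological sample as a random block, limma called 5 P450 genes (2.91% of all rows tested), CYP24A1 as higher and CYP2J2, CYP3A5, CYP4A11 and CYP4F11 as lower, with adjusted p of 0.00693 for CYP3A5 and 0.045 for CYP4F11 at the ends. That fit counts technical arrays as observations and applies the same correlation between them to every row, so its p-values can be too small. For CYP24A1, whose siControl replicates lay 2.04 apart on the log2 scale, the error fell from 0.65 to 0.44. Without siControl replicate 1 there were 12 calls (16.6% of all rows tested), and without siControl replicate 2 there were 13 (38.7%). In bulk RNA, fewer cells that express a gene and less RNA per cell cannot be told apart.

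**Figure D1:**
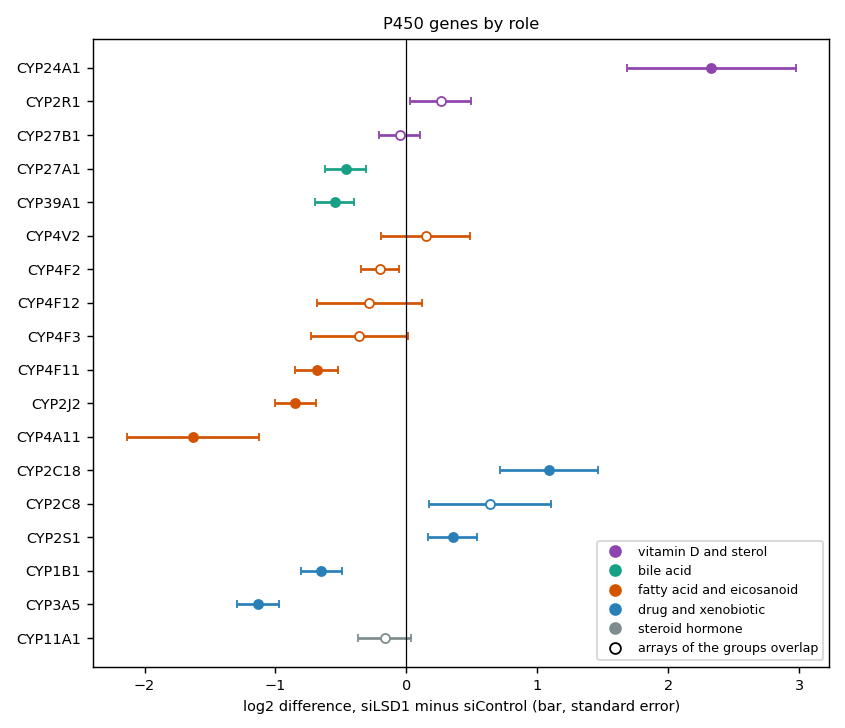
Log2 difference of the 18 detected P450 genes, siLSD1 minus siControl, with the standard error of the limma fit as a bar, ordered by role. Filled points mark the 10 genes whose siLSD1 and siControl arrays do not overlap, and the values run from -1.63 for CYP4A11 to 2.33 for CYP24A1.

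Among the vitamin D enzymes, CYP24A1, which inactivates the hormone, stood higher in siLSD1, while the activating enzymes CYP27B1 and CYP2R1 had overlapping arrays. CYP24A1 had signals of 4713, 4432, 3717 and 3837 on the siLSD1 arrays, against 436 and 460 (siControl replicate 1) and 1804 and 1625 (siControl replicate 2). The siLSD1 arrays all exceeded the siControl arrays, and within siControl the pair of arrays of replicate 2 exceeded the pair of replicate 1. Its normalized log2 level averaged 12.05 ± 0.11 in siLSD1 and 9.72 ± 1.44 in siControl (SD, n = 2 each), a difference of 2.33 ± 0.65 (limma adjusted p = 0.329). The siLSD1 mean lay above siControl replicate 1 by 3.35 and above replicate 2 by 1.31 on the log2 scale.

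CYP27B1, which makes the active hormone, ran from 557 to 672 in siLSD1 and from 579 to 734 in siControl, a log2 difference of -0.05 ± 0.16. CYP2R1, which makes the circulating precursor, had a log2 difference of 0.26 ± 0.23. Its siLSD1 signals of 823 to 1067 spanned those of siControl replicate 2, 959 and 970, and exceeded those of replicate 1, 693 and 642. VDR, the receptor that mediates the response of CYP24A1 to vitamin D, was undetected on every array, at 137 to 152 in siLSD1 and 147 to 161 in siControl. VDR belongs to a list of 9 genes of vitamin D handling and response, of which 2 were tested and 0 called, and 6 were undetected on every array. GC, the plasma carrier of vitamin D, had signals of 18659, 20228, 16407 and 16480 in siLSD1, against 9764, 8187, 13566 and 13426 in siControl, a log2 difference of 0.77 ± 0.25 (limma adjusted p = 0.362). Both siControl replicates lay below siLSD1 for GC, by 1.07 for replicate 1 and 0.46 for replicate 2, the same order as for CYP24A1.

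Both detected bile acid enzymes had lower signals in siLSD1. CYP27A1, the mitochondrial sterol hydroxylase that begins the alternative pathway of bile acid synthesis, had signals of 2266, 2263, 1765 and 1779 on the siLSD1 arrays, against 2994, 2781, 2939 and 2699 on the siControl arrays. The groups did not overlap, and the siControl arrays lay close together. The log2 difference was -0.46 ± 0.16 (limma adjusted p = 0.381), with -0.42 and -0.50 for siControl replicates 1 and 2 taken alone. CYP39A1, which hydroxylates an oxysterol on the way to bile acids, was dim, with signals of 210, 204, 191 and 201 in siLSD1, against 256, 257, 285 and 294 in siControl. It was detected on 2 of 4 siLSD1 arrays and on all 4 siControl arrays, so the size of its difference, -0.55 ± 0.15 (limma adjusted p = 0.319), is uncertain, and under neqc it was -0.040. It was -0.50 and -0.60 against siControl replicates 1 and 2. CYP7A1, the rate-limiting enzyme of the classical pathway, and CYP7B1 and CYP8B1, which act further along these pathways, were undetected on every array.

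Of the 7 detected fatty acid and eicosanoid enzymes, CYP2J2, CYP4F11 and CYP4A11 had lower signals in siLSD1 with arrays that did not overlap. CYP2J2, which epoxidises arachidonic acid, had signals of 6156, 5924, 4875 and 4953 in siLSD1, against 10962, 10458, 10785 and 8382 in siControl. The dimmest siControl array was still brighter than every siLSD1 array. Its normalized log2 level averaged 12.43 ± 0.11 in siLSD1 and 13.28 ± 0.10 in siControl (SD, n = 2 each), a difference of -0.85 ± 0.16 (limma adjusted p = 0.243), -0.92 and -0.78 against siControl replicates 1 and 2. CYP4F11, which hydroxylates long-chain fatty acids and vitamin K, had signals of 3313, 3491, 2992 and 2960 in siLSD1, against 5958, 5954, 4696 and 4606 in siControl. The groups again did not overlap, and siControl replicate 1 was the brighter of the siControl pair. Its log2 difference was -0.69 ± 0.17 (limma adjusted p = 0.290), -0.82 and -0.55 against siControl replicates 1 and 2.

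CYP4A11, a fatty acid omega-hydroxylase and a known target of the receptor PPARA, was detected on 0 of 4 siLSD1 arrays and on all 4 siControl arrays. Its signals were 148, 157, 160 and 168 in siLSD1, against 664 and 679 (siControl replicate 1) and 271 and 244 (siControl replicate 2). The siControl replicates differed more from each other than replicate 2 did from siLSD1. On the normalized log2 scale the means were 6.87 ± 0.08 in siLSD1 and 8.50 ± 1.11 in siControl (SD, n = 2 each). With every siLSD1 array set no lower than the dimmest detected row of that array, siControl was 2.83-fold higher on the normexp and quantile scale. The fitted difference on that scale was -1.63 ± 0.51 (limma adjusted p = 0.354). The 2.83-fold value is for the mean of the siControl replicates on this scale alone. It is not a minimum, because the detection p-values do not follow the signal alone. The fitted log2 difference was -1.33 in the authors' normalized values, -0.855 without siControl replicate 1 and -0.17 under neqc. Set against single replicates, it was -2.42 for siControl replicate 1 and -0.84 for replicate 2. CYP4A22, a closely related gene also on chromosome 1, was undetected on every array, at 121 to 126 in siLSD1 and 112 to 126 in siControl. Shared probes were not examined because the sources used here give no probe sequences.

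Of the remaining members of this group, CYP4F12 and CYP4F3, which hydroxylate arachidonic acid and leukotriene B, differed from siControl replicate 1 in one direction and from replicate 2 in the other. CYP4F12 had signals of 482, 405, 328 and 338 in siLSD1, against 346 and 276 (siControl replicate 1) and 686 and 653 (siControl replicate 2). CYP4F3 had signals of 1600, 1468, 1381 and 1279 in siLSD1, against 1330 and 1286 (siControl replicate 1) and 2947 and 2341 (siControl replicate 2). Both sets of siLSD1 arrays lay near or between the siControl replicates, with log2 differences of -0.28 ± 0.40 and -0.36 ± 0.37. CYP4F3 was detected on 2 of 4 siLSD1 arrays in spite of these signals, because the deposited detection p-values do not follow the signal alone. CYP4V2, a fatty acid hydroxylase mutated in a crystalline dystrophy of the retina, stood at 0.15 ± 0.34 and was detected on 3 of 4 siControl arrays. CYP4F2, which hydroxylates arachidonic acid and vitamin K, stood at -0.20 ± 0.14, with overlapping arrays.

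**Figure D2:**
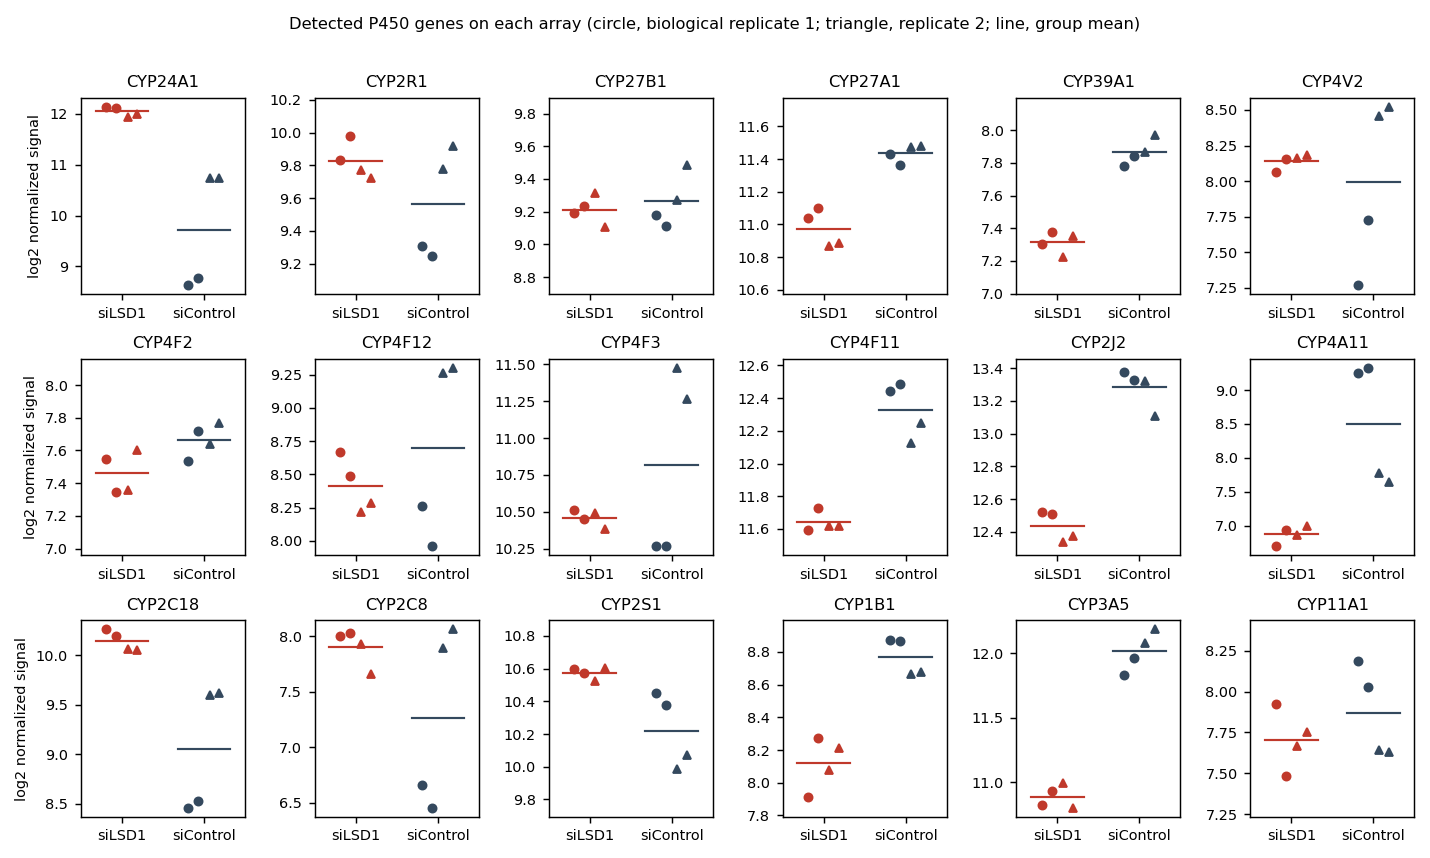
Normalized log2 signal of the 18 detected P450 genes on each of the 8 arrays, siLSD1 left and siControl right in each panel, with its own vertical scale per panel. Circles are biological replicate 1, triangles biological replicate 2 and lines the group means, and the siControl replicates stand clearly apart for CYP24A1, CYP2C18, CYP2C8, CYP4A11, CYP4F3 and CYP4F12.

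Among the drug and xenobiotic enzymes, CYP3A5 and CYP1B1 had lower and CYP2C18 had higher signals in siLSD1. CYP3A5, a hepatic drug-oxidising enzyme, had signals of 1953, 2002, 1917 and 1683 in siLSD1, against 3953, 4182, 4570 and 4418 in siControl. Every siLSD1 array lay below every siControl array. Its log2 level averaged 10.89 ± 0.02 in siLSD1 and 12.02 ± 0.17 in siControl (SD, n = 2 each), a difference of -1.13 ± 0.16 and the smallest adjusted p of the family (limma adjusted p = 0.223). The difference was -1.01 and -1.25 against siControl replicates 1 and 2. Its relatives in the same cluster on chromosome 7, CYP3A7, CYP3A4 and CYP3A43, were undetected on every array, with signals of 126 to 193 for CYP3A7, 128 to 158 for CYP3A4 and 137 to 159 for CYP3A43.

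CYP1B1, which oxidises oestrogens and polycyclic hydrocarbons and is induced through the aryl hydrocarbon receptor, had signals of 298, 353, 304 and 324 in siLSD1, against 512, 490, 467 and 447 in siControl. The groups did not overlap, and the log2 difference was -0.65 ± 0.16 (limma adjusted p = 0.284), -0.75 and -0.55 against siControl replicates 1 and 2, but -0.088 under neqc. It was -0.58 both without background correction and in the authors' normalized values. CYP1A1, another target of that receptor, was detected on 0 siLSD1 arrays and 2 siControl arrays and was not tested. Its signals were 148, 137, 105 and 140 in siLSD1, against 264, 247, 156 and 117 in siControl, so that siControl replicate 1 stood apart and replicate 2 overlapped siLSD1.

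CYP2C18, a member of the CYP2C family whose substrates are less well known than those of its relatives, had signals of 1358, 1225, 1034 and 1025 in siLSD1, against 393 and 394 (siControl replicate 1) and 854 and 797 (siControl replicate 2). All siLSD1 arrays exceeded all siControl arrays, by 1.65 against siControl replicate 1 and 0.53 against replicate 2 on the log2 scale, and the difference was 1.09 ± 0.38 (limma adjusted p = 0.384), or 0.35 under neqc. CYP2C8, which metabolises paclitaxel and arachidonic acid, had signals of 313, 300, 279 and 239 in siLSD1, against 139 and 124 (siControl replicate 1) and 292 and 308 (siControl replicate 2). Both arrays of siControl replicate 1 were not above background, so the size of the fitted log2 difference, 0.64 ± 0.47 (0.036 under neqc), is uncertain, and it was -0.07 against replicate 2. CYP2C19, which lies between them in the gene order of chromosome 10, was detected on 3 siLSD1 arrays and 0 siControl arrays and was not tested. Its signals were 228, 206, 182 and 211 in siLSD1, against 165, 152, 192 and 165 in siControl, so the arrays overlapped. These signals are dim, and the log2 difference of CYP2C19 in the fit with no filter was 0.36 ± 0.125 (limma adjusted p = 0.509).

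CYP2S1, an enzyme of epithelia outside the liver, had signals of 1684, 1581, 1411 and 1484 in siLSD1, against 1515, 1384, 1100 and 1073 in siControl. These signals overlapped, and the arrays separated only after normalization, with a log2 difference of 0.35 ± 0.19 (limma adjusted p = 0.538; 0.22 under neqc), 0.16 and 0.55 against siControl replicates 1 and 2. CYP11A1, the mitochondrial enzyme that begins steroid hormone synthesis from cholesterol, stood at -0.17 ± 0.20, with signals of 216 to 299 in siLSD1 and 242 to 329 in siControl. The other steroid hormone enzymes of the family, CYP11B1, CYP11B2, CYP17A1, CYP19A1 and CYP21A2, were undetected on every array.

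The windows upstream of CYP3A5, CYP2J2 and CYP27A1 are printed because these genes were lower against both siControl replicates with arrays that do not overlap, were detected on all 8 arrays and have a single window each in the promoter table. Each is the 250 bases before the start that RefSeq gives on GRCh38.p14, written 5′ to 3′ on the strand of the gene. Capitals mark the hexamer AGGTCA, the hexamer AGTTCA, the hexamer GGTTCA and the hexamer GGGTCA, which nuclear receptors recognise, and the cores ACGTG and also GCGTG of the hypoxia response element, each searched on both strands; GCGTG is also the core bound by the aryl hydrocarbon receptor. The CYP3A5 window is chr7:99679997-99680246 (minus strand), that of CYP2J2 is chr1:59926774-59927023 (minus strand) and that of CYP27A1 is chr2:218781897-218782146 (plus strand).
CYP3A5: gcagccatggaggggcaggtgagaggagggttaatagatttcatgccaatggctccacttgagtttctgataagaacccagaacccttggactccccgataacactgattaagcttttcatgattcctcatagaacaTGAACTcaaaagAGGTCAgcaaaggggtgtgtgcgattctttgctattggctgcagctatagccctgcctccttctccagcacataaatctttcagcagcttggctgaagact
CYP2J2: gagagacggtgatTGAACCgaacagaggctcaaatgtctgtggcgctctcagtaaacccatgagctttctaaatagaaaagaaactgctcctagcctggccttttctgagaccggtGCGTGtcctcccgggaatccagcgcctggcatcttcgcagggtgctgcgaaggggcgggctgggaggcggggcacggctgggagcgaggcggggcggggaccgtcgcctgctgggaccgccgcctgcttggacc
CYP27A1: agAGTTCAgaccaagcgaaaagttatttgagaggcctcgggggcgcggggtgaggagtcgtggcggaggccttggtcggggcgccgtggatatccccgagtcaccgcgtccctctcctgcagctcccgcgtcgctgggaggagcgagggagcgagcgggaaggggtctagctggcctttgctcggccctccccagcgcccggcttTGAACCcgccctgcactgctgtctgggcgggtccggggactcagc

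The CYP3A5 window held AGTTCA on the opposite strand at 113 to 108 bases before the start and AGGTCA at 101 to 96, a pair pointing away from each other with 6 bases between them. This exact pair, the arrangement known as an everted repeat through which the pregnane X receptor (NR1I2) acts on CYP3A genes, was in 3 of 35116 promoter windows (0.00854%), those of CYP3A4 and CYP3A5 among them. It was looked for after the hexamers had been seen, and NR1I2 was undetected on every array, at 151 to 185 in siLSD1 and 178 to 202 in siControl. The CYP2J2 window held GGTTCA on the opposite strand at 237 to 232 and GCGTG at 134 to 130. The CYP27A1 window held AGTTCA at 248 to 243 and GGTTCA on the opposite strand at 45 to 40. Of the 18 detected genes, 12 matched the table, with 15 windows, of which 10 held at least 1 hexamer and 3 at least 1 hypoxia core. Over all windows of the table, 33.8% held a hexamer and 43.2% a hypoxia core. Taken singly, AGGTCA was in 12.1% of all windows, AGTTCA in 8.8%, GGTTCA in 7.16%, GGGTCA in 12.1%, ACGTG in 18.5% and GCGTG in 32.2%. A match of letters is a description and not a bound site. CYP24A1, CYP4A11, CYP1B1, CYP27B1, CYP2C18 and CYP4F12 had no entry.

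A further 31 of the 52 genes were undetected on every array. They include the drug enzymes CYP1A2, CYP2A6, CYP2B6, CYP2D6, CYP2E1 and CYP3A4 that mark adult hepatocytes. The others not yet named are CYP2A7, CYP2A13, CYP2F1, CYP2U1, CYP2W1, CYP4B1, CYP4F8, CYP4F22, CYP4X1, CYP4Z1, CYP26C1, CYP27C1 and CYP46A1, whose substrates range from fatty acids to brain cholesterol, and CYP20A1. Apart from CYP20A1, the signals of these 30 genes ran from 82.9 to 197. CYP20A1, an enzyme of unknown substrate, had signals of 1078, 1068, 849 and 862 in siLSD1, against 1620 and 1582 (siControl replicate 1) and 908 and 779 (siControl replicate 2). It exceeded every ERCC row on all 8 arrays, and yet its lowest detection p was 0.0539, so by the detection rule it is undetected in spite of its signal. Its log2 difference in the fit with no filter was -0.23 ± 0.29 (limma adjusted p = 0.936).

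The tested CYP4F genes all had lower estimates in siLSD1, and the tested CYP2C genes, CYP2C18 and CYP2C8, had higher ones. Among them only CYP4F11 and CYP2C18 had arrays that did not overlap. For CYP4F3, CYP4F12 and CYP2C8 the sign differed between the siControl replicates. Along chromosome 19 the order was CYP4F22, CYP4F8, CYP4F3, CYP4F12, CYP4F2 and CYP4F11, of which the first pair was undetected, CYP4F3, CYP4F12 and CYP4F2 had overlapping arrays and CYP4F11 was lower in siLSD1. On chromosome 10, CYP2C18 was higher in siLSD1 and CYP2C8 was detected on all siLSD1 arrays and in siControl replicate 2 alone. On chromosome 1, CYP4A11 was the 1 detected gene among CYP4B1, CYP4A11, CYP4X1, CYP4Z1 and CYP4A22. The gene order comes from RefSeq on GRCh38.p14, and members of a cluster are similar in sequence, and signal from one gene on the probe of another was not tested.

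The siControl replicates were over 2-fold apart for 6 of the 18 detected genes (33.3%), against 5.28% of all rows tested, while the siLSD1 replicates were over 2-fold apart for 0 of the 18, against 0.00777% of all rows tested. The absolute log2 difference between replicates had a median of 0.057 over the 18 genes in siLSD1 and 0.43 in siControl. Over all rows tested the medians were 0.12 in siLSD1 and 0.28 in siControl. The siLSD1 mean lay on the same side of both siControl replicates for 11 of the 18 genes and on opposite sides for 7, namely CYP11A1, CYP27B1, CYP2R1, CYP2C8, CYP4V2, CYP4F3 and CYP4F12. The arrays of 1 sample differed by an SD of 0.15 to 0.16 on the log2 scale over all rows tested, whichever sample was taken, against 0.50 between the siControl samples and 0.18 between the siLSD1 samples. Its part in each P450 difference was not tested beyond the values against each replicate.

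**Figure D3:**
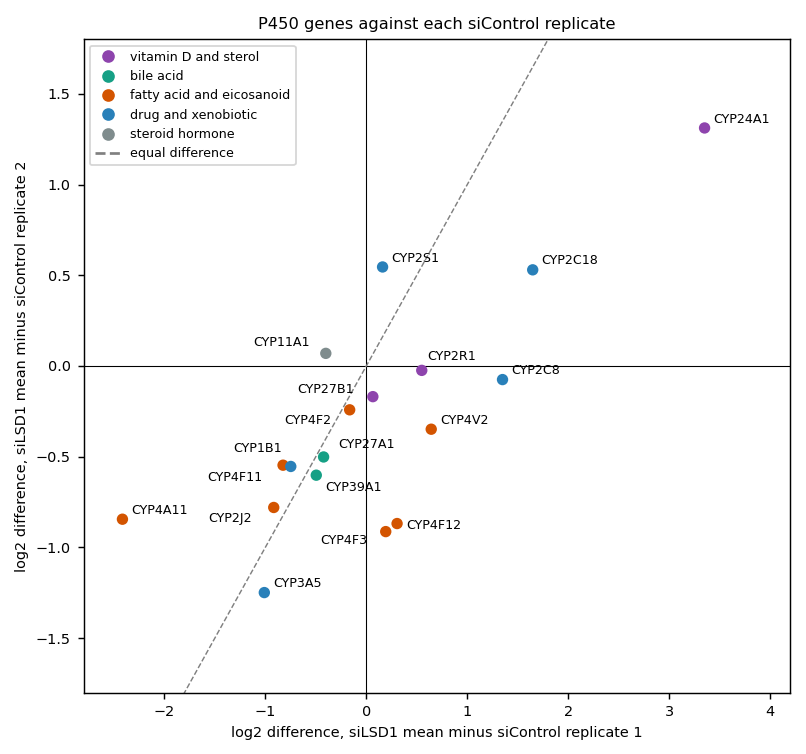
Log2 difference of the siLSD1 mean from siControl replicate 1 (horizontal) and from siControl replicate 2 (vertical) for the 18 detected P450 genes, coloured by role, with a dashed line where both differences are equal. CYP3A5, CYP2J2, CYP27A1, CYP39A1, CYP1B1 and CYP4F11 lie near the line below 0, CYP24A1 and CYP4A11 lie far from it, and 7 genes have opposite signs.

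The enzymes and regulators that P450 proteins depend on were taken from 6 lists, with 46 tested genes in all, of which limma called 0 at an adjusted p of 0.05. Of the 7 tested electron donors and membrane partners, 6 had lower estimates and 1 higher, with a median log2 difference of -0.22. POR, the common reductase, had signals of 2071, 1777, 1903 and 1787 in siLSD1, against 2992 and 2954 (siControl replicate 1) and 1681 and 1679 (siControl replicate 2). Its siLSD1 arrays lay between the siControl replicates, and the difference was -0.19 ± 0.27. Of 8 tested genes of heme synthesis and breakdown, 3 had higher and 5 lower estimates (median -0.10). The heme pathway enzyme CPOX stood at 0.43 ± 0.14 (limma adjusted p = 0.376), at 0.43 against each siControl replicate, and UROD, which acts just before it, at -0.52 ± 0.20 (limma adjusted p = 0.412).

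Of 11 tested receptors and regulators, 7 had higher and 4 lower estimates (median 0.17). NR0B2, the small heterodimer partner that represses CYP7A1 in response to bile acids, had signals of 553, 422, 471 and 406 in siLSD1, against 150 and 129 (siControl replicate 1) and 230 and 227 (siControl replicate 2). All siLSD1 arrays exceeded all siControl arrays. The log2 difference was 1.19 against siControl replicate 2, where NR0B2 was detected. Both arrays of siControl replicate 1 were not above background, so the size of the fitted difference over both replicates, 1.62 ± 0.30 (limma adjusted p = 0.243), is uncertain. NR1H4, the bile acid receptor that induces NR0B2, was picked out after its values were seen. It had signals of 5663, 5599, 4651 and 3966 in siLSD1, against 978 and 968 (siControl replicate 1) and 3749 and 3344 (siControl replicate 2), a log2 difference of 1.46 ± 0.63 (limma adjusted p = 0.456). Of the receptors that regulate drug-metabolising P450 genes, NR1I2 and NR1I3 were undetected on every array. The aryl hydrocarbon receptor AHR stood at -0.05 ± 0.19, with overlapping arrays.

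All 10 genes of bile acid synthesis outside the family were tested, with 7 higher and 3 lower estimates (median 0.11). HSD3B7, which modifies the sterol ring early in the pathway, had signals of 791, 765, 784 and 740 in siLSD1, against 1227, 1196, 1233 and 1082 in siControl. The groups did not overlap, and the log2 difference of -0.61 ± 0.15 (limma adjusted p = 0.290) was -0.63 and -0.59 against siControl replicates 1 and 2. Of 8 tested PPARA targets, 7 had higher and 1 lower estimates (median 0.27), while CYP4A11, which is also a PPARA target, was lower. PDK4, a kinase that restrains glucose oxidation, stood at 0.42 ± 0.15 (limma adjusted p = 0.393), and CPT1A, the carnitine transferase that brings fatty acids into mitochondria, at -0.52 ± 0.20 (limma adjusted p = 0.412). PPARA itself was undetected on every array.

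**Figure D4:**
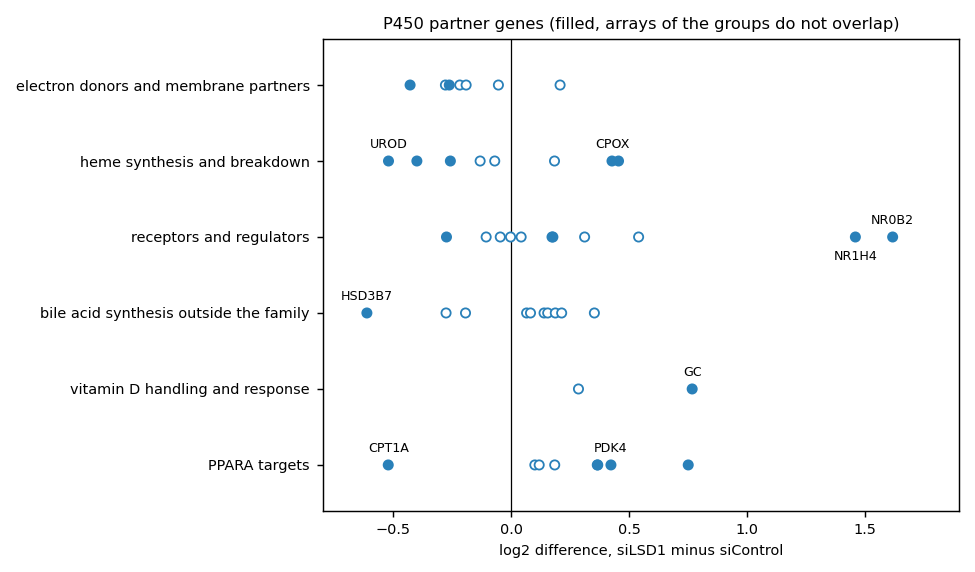
Log2 difference, siLSD1 minus siControl, of the tested genes in 6 lists that work with or regulate P450 enzymes, 1 point per gene. Filled points mark genes whose arrays do not overlap between the groups, and NR0B2, fitted at 1.62 with siControl replicate 1 not above background, and NR1H4 at 1.46 lie to the right of the rest.

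Over the 8 arrays, the tested rows whose normalized log2 levels followed CYP24A1 most closely were UBASH3B, SLC45A3 and SPP1, with Pearson r of 0.998, 0.998 and 0.997. Their log2 differences between siLSD1 and siControl were 1.44, 1.07 and 0.81. For CYP4A11 they were HBB, ARHGDIA and CDC25A, with r of 0.999, 0.996 and 0.996, and differences of -1.11, -0.30 and -1.32. The 8 arrays stand for 4 samples, and the 3 closest of 12870 rows are the extremes of a large search, so these values describe likeness alone.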

How the data were processed

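Per the labels, total RNA was labelled as biotin-cRNA and hybridised to Illumina bead arrays. The authors deposited, for each row and array, a non-normalized intensity (linear scale) with its detection p-value (34694 rows), made with BeadStudio 3.1.1.0 per the submitters' processing notes. They also deposited a table of normalized intensity (34687 rows), whose method is not given in the sources used here. Signals in the text are the non-normalized ones.

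The intensity was corrected with normexp (offset 50), quantile normalized and set on a log2 scale. The test took the 12870 rows, ERCC rows left out, whose detection p was under 0.01 on 4 arrays or more. After averaging technical arrays, 2 siLSD1 and 2 siControl samples were fitted in limma 3.58.1 (lmFit, eBayes; R 4.3.3), with Benjamini-Hochberg adjustment over all rows and a threshold of 0.05. The fit was run on simulated data with the same spread in both groups. That check does not cover the unequal spread of these groups. The neqc method was an alternative: from the detection p-values it inferred a background SD of 799.4 to 1101 and mean of 314.5 to 383.8 on the arrays, whose ERCC rows had median signals of 107.7 to 119.3. The inferred mean thus lay above the median ERCC signal on every array. Precision is limited by the number of samples, 2 in each group.

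The members, lists and tests were chosen with earlier results of these data known. All detected members were described, with every array's signal for those with a difference over 2-fold or with arrays that do not overlap. Partner genes were named where arrays did not overlap and the unadjusted p was under 0.05, at most 4 per list. POR, AHR, NR1H4 and the untested VDR, NR1I2, NR1I3 and PPARA were named outside this rule. The 3 rows most like CYP24A1 and CYP4A11 by Pearson r were also named. All 52 members carry current RefSeq symbols. The values of 1 member that was not tested are not reported here. Protein sequences were not used here.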

Additional observations from a re-analysis of the deposited data

Results flagged for a closer look

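CYP20A1 was singled out because it carried signal and yet lay outside the tested rows. Its lowest signal on any array was 779, and it exceeded every ERCC control row on all 8 arrays, while its detection p-value missed 0.01 on each of them. Over 38 sets of 4 arrays (KDM1A and the 18 detected P450 genes in each group), 0 had a single array that stood apart from the other 3 by Dixon's criterion. This check cannot flag a biological replicate whose arrays deviate together, as in siControl for CYP24A1.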

How the results depend on the processing

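Under the 10 alternatives that kept all samples, all 18 detected P450 genes kept the sign of their difference wherever they were tested. Those that changed only the row filter, modelled the technical replicates or blocked by replicate number keep the same estimates by design. The sign was free to turn only under other background corrections, median scaling and the authors' normalized values. With the technical replicates modelled, limma called 5 P450 genes, CYP24A1 as higher and CYP2J2, CYP3A5, CYP4A11 and CYP4F11 as lower (2.91% of all rows were called), and 2 partner genes, NR0B2 as higher and HSD3B7 as lower. Because that fit applies the same correlation between technical arrays to every row, these calls can rest on too small an error. After neqc the differences of dim genes shrank, to -0.17 for CYP4A11, 0.35 for CYP2C18, -0.088 for CYP1B1 and -0.040 for CYP39A1, while CYP3A5 stood at -1.42, CYP2J2 at -1.03 and CYP24A1 at 2.02. Without background correction CYP4A11 stood at -1.37, CYP2C18 at 1.03, CYP1B1 at -0.58 and CYP39A1 at -0.45. Leaving out 1 biological sample or array gave 0 to 13 called P450 genes, 2 to 5 over 2-fold and 0 to 24 called partner genes. The counts above 0 came from leaving out siControl biological replicate 1 (12 genes, 16.6% of all rows called) or 2 (13 genes, 38.7%), fits that take the spread of the remaining siControl sample from the siLSD1 pair alone. Signs turned within these ranges for CYP11A1 (-0.40 to 0.070), CYP27B1 (-0.17 to 0.065), CYP2C8 (-0.075 to 1.34), CYP2R1 (-0.024 to 0.55), CYP4F12 (-0.86 to 0.31), CYP4F3 (-0.91 to 0.20) and CYP4V2 (-0.35 to 0.64). The value of CYP24A1 ran from 1.31 to 3.36, of CYP2C18 from 0.52 to 1.66 and of CYP4A11 from -2.41 to -0.855, against -1.25 to -1.01 for CYP3A5. With the replicate number as a block, limma called 0 P450 genes and 0 partner genes; the labels give the numbers no shared day or batch, and deviations of same-numbered samples correlated at r = 0.12 over the rows tested.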
